A study of Rattus norvegicus with 9 samples.

Results

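The 4 receptors of bone morphogenetic proteins (BMPs) on an osteogenesis PCR array were followed through healing of the rat patellar enthesis, the insertion of the patellar tendon into the tibia. They were the wells whose gene symbol was *Acvr1*, *Bmpr1a*, *Bmpr1b* or *Bmpr2*, 4 of the 84 target genes of the array, and all 4 were found. The series has 9 samples. At 4 and at 12 weeks after surgery, 1 sample each came from knees with a silk fibroin scaffold whose bone and tendon phases were joined by a mixed, smooth transition (S-MT) or by an abrupt one (S-AT), from knees with an empty bone defect and a re-sutured tendon (ED) and from knees where the tendon had only been cut across (TC), and the last sample was native tissue from the uninjured opposite knee. The animals were adult male Sprague Dawley rats, and tissue was taken for RNA after mechanical testing. The design gives 8 animals per group and time point, but the tables hold 1 value per gene and group, and whether it stands for 1 rat, a mean or pooled RNA is not given in the sources used here. No test, SD or interval could therefore be given for any difference, and every comparison below is between single values. The native sample carries a 4-week label and was used for both time points.

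BMPs are secreted dimers that bind a complex of type I and type II serine/threonine kinase receptors. The type II receptor, here *Bmpr2*, phosphorylates the type I receptor, and the type I receptor then phosphorylates *Smad1*, *Smad5* and Smad8, which enter the nucleus with *Smad4*. The type I receptors on the array were *Acvr1* (ALK2), whose activating mutations cause heterotopic bone formation in people, *Bmpr1a* (ALK3), which is broadly expressed, and *Bmpr1b* (ALK6), known for its role in cartilage and digit formation.

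The readout was the threshold cycle (Ct), the PCR cycle in which fluorescence first passes a set limit. A lower Ct means more template, and 1 cycle is a factor of 2 if template doubles in each cycle. A Ct at or under 35 was taken as detected. Between 20 (native) and 83 (ED at 12 weeks) of the 84 target genes were detected. The mean Ct of the reference genes *Ldha* and *Rplp1* ran from 25.7 in S-AT at 12 weeks to 30.02 in native tissue, the well that by the maker's usual layout controls for genomic DNA ran from 29.2 in ED at 12 weeks to 36.5 in TC at 4 weeks, and the Ct of the target genes had the narrowest spread in ED at 12 weeks (SD over genes 1.504 cycles, against 1.97 to 3.96 in the other samples). The SD between triplicate control wells, which had early Ct values, was at most 0.0879 cycles and covers the pipetting of 1 plate only. The 5 markers of fibrous tendon matrix were all detected in every sample but S-AT at 12 weeks (4 of 5). Of 5 markers of bone-forming cells, 5 were detected in ED at 12 weeks, 3 in TC at 12 weeks, 2 in S-MT at 12 weeks and 0 in the other 6 samples. Even the earliest of these markers came up after the genomic DNA control well of its sample. The values were 29.22 against 29.16 in ED, 33.48 against 30.42 in TC and 33.31 against 30.95 in S-MT at 12 weeks. How much genomic template added to the marker wells was not tested. In whole tissue, more cells of a type and more RNA per cell cannot be told apart.

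*Bmpr1a* and *Bmpr2* are shown here by the sequence around their annotated start sites, as the receptors of the 4 for which the table of promoter sequences used here has an entry, and as a pair whose Ct difference changed sign between samples. Each run holds 250 bases before and 50 bases after the start (RefSeq, build GRCr8), read 5′ to 3′ on the gene's strand, with every CG dinucleotide (the motif CG, which reads the same on both strands) in capitals. The *Bmpr1a* stretch is chr16:9786812-9787111 on the minus strand and the *Bmpr2* stretch is chr9:68686566-68686865 on the plus strand.
Bmpr1a: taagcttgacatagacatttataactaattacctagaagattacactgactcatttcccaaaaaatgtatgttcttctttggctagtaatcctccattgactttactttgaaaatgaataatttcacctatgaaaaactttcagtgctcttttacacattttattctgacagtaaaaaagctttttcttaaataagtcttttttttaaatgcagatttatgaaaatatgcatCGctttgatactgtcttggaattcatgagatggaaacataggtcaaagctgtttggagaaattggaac
Bmpr2: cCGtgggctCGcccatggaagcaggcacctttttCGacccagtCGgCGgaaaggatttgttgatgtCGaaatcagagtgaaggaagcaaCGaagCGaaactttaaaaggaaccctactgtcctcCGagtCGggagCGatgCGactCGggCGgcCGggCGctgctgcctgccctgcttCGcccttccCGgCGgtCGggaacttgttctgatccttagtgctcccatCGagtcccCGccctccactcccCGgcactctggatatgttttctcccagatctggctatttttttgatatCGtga
The *Bmpr1a* stretch held 1 CG and 30% G or C bases, and the *Bmpr2* stretch held 24 CG and 57.3% G or C bases. Over 33469 rat stretches of the same length the median was 7 CG and 51.7% G or C bases, and 94.5% had at least 1 CG while 17.95% had at least 24. These counts describe the letters, and the array did not measure promoters.

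Detection differed between receptors and between samples. *Bmpr2* was detected in all 8 operated samples, *Bmpr1a* in 6, *Bmpr1b* in 5 and *Acvr1* in 4, and in native tissue all 4 receptors were over the cut-off. Of 36 receptor values, 23 were detected.

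The Ct of *Acvr1* was 33.4 in S-MT at 4 weeks, 33.5 in S-AT at 4 weeks, 32.5 in S-MT at 12 weeks and 29.7 in ED at 12 weeks. It was over the cut-off, between 35.3 and 37.6, in S-AT at 12 weeks, ED at 4 weeks, both TC samples and native tissue. ED at 12 weeks thus stood apart as the earliest sample.

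*Bmpr1a* had a Ct of 33.1 in both scaffold groups and of 34.2 in ED at 4 weeks. At 12 weeks it had a Ct of 31.6 in S-MT, 28.6 in ED and 33.5 in TC. Its wells in S-AT at 12 weeks, TC at 4 weeks and native tissue were between 35.5 and 36.0. ED at 12 weeks was again the earliest, and its 28.6 was the lowest Ct of any receptor in any sample. The rat annotation lists a pseudogene of this receptor, *Bmpr1a-ps1*, and none so named for the other 3; whether the assay also amplifies it is not given in the sources used here.

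*Bmpr1b* was the latest of the receptors in most samples. At 4 weeks it came up at 34.9 in S-MT, against 33.8 in S-AT. At 12 weeks its Ct was 33.5 in S-MT, 31.1 in ED and 34.2 in TC. In ED at 4 weeks it was at 39.2, the highest Ct of any receptor in any sample, and in S-AT at 12 weeks, TC at 4 weeks and native tissue it was between 37.1 and 37.7.

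At 4 weeks *Bmpr2* came up at 31.8 in S-MT, at 31.4 in S-AT, at 32.6 in ED and at 34.7 in TC. At 12 weeks it was at 30.3 in S-MT, 33.6 in S-AT, 30.8 in ED and 34.3 in TC. Native tissue stood apart at 37.3.

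**Figure D1:**
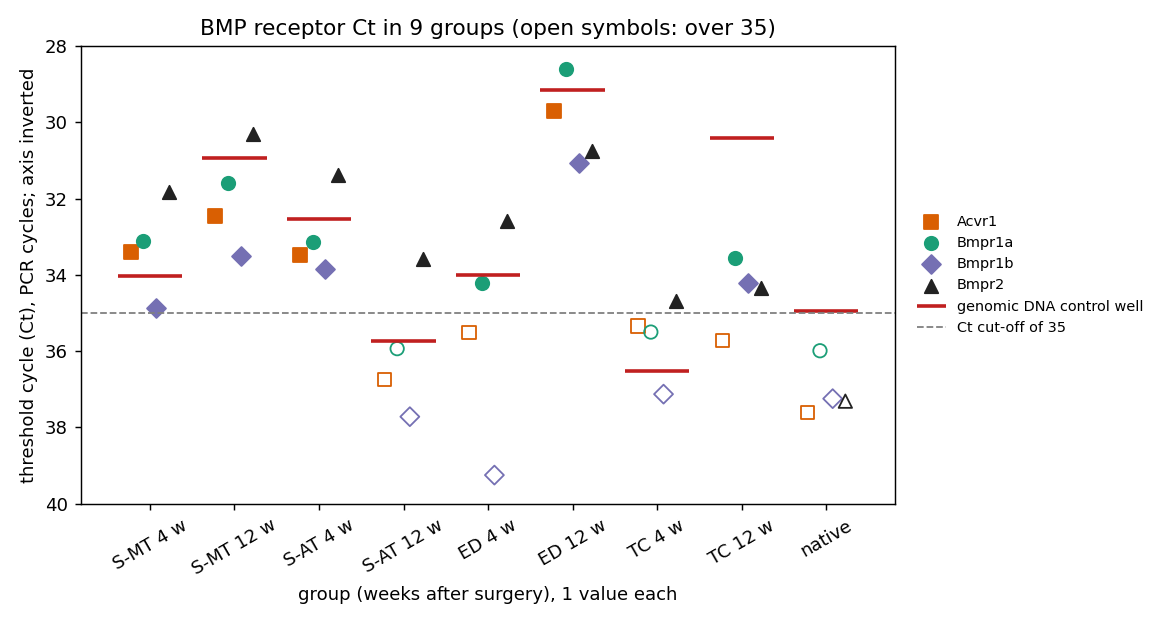
Ct of the 4 receptors (inverted vertical axis, PCR cycles) in each group (horizontal axis, 1 value each); open symbols are over the cut-off of 35, drawn as a dashed line, and the red bars are the genomic DNA control well of the same plate. Bmpr2 was detected in 8 samples, and the 3 type I receptors were earliest in ED at 12 weeks, where the red bar was earliest too (29.2).

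The genomic DNA control well ran close to the receptors. A receptor came up before this well in 9 of its 23 detected values and after it in 14. It was at least 1 cycle ahead in 5, all of them *Bmpr2*: by 2.21 cycles in S-MT at 4 weeks, 1.17 and 2.14 cycles in S-AT at 4 and 12 weeks, 1.41 cycles in ED at 4 weeks and 1.85 cycles in TC at 4 weeks. In ED at 12 weeks *Bmpr1a* was 0.57 cycles ahead of it, and *Acvr1*, *Bmpr2* and *Bmpr1b* were 0.55, 1.59 and 1.91 cycles behind it. In TC at 12 weeks the 3 detected receptors were 3.12 to 3.93 cycles behind it. A restriction chosen after seeing the data kept only receptor values at least 1 cycle ahead of this well or over the cut-off. The only call then left among those counted below was that of *Bmpr2* in S-AT over time. How much genomic template added to the receptor wells was not tested.

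Set against the mean Ct of *Ldha* and *Rplp1* (delta Ct, in cycles, lower for a higher level), the receptors had different orders of samples. Among the samples where it was detected, *Bmpr1a* was highest in ED at 12 weeks (delta Ct 2.37), followed by TC (3.80) and S-MT (5.19) at 12 weeks, and the 3 samples of 4 weeks lay between 6.04 (ED) and 6.31 (S-MT). *Acvr1* was highest in ED at 12 weeks (3.49), followed by S-MT at 12 weeks (6.08), with S-AT (6.59) and S-MT (6.60) at 4 weeks next to each other. *Bmpr1b* was highest in TC (4.45) and ED (4.85) at 12 weeks, followed by S-AT at 4 weeks (6.96), S-MT at 12 weeks (7.12) and S-MT at 4 weeks (8.05). These 2 orders also leave out samples over the cut-off, where delta Ct has only a lower bound. The bound was 4.98 in native tissue and 5.23 and 5.25 in TC at 4 and 12 weeks. For *Acvr1* these samples could lie above S-MT at 12 weeks. For *Bmpr1a* and *Bmpr1b* native tissue and TC at 4 weeks could lie above the placed samples of 4 weeks. ED at 12 weeks for *Acvr1* and *Bmpr1a* and TC at 12 weeks for *Bmpr1b* were also highest with *Ldha* alone and with *Rplp1* alone, but the place of *Bmpr1a* in ED at 4 weeks was not kept, being the third highest with *Ldha* alone and the lowest with *Rplp1* alone.

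*Bmpr2* followed another order with the mean of *Ldha* and *Rplp1* as reference. It was highest in S-MT at 12 weeks (delta Ct 3.93) and lowest in S-AT at 12 weeks (7.86), and the other 6 operated samples lay between 4.42 (ED at 4 weeks) and 5.01 (S-MT at 4 weeks). Without S-AT at 12 weeks the 7 operated samples spanned 1.09 cycles. This order rests on the mean of both reference genes. S-AT at 12 weeks was lowest and S-MT at 12 weeks highest with *Rplp1* alone as well, but with *Ldha* alone, where S-AT at 12 weeks was again lowest, ED (1.57 cycles after *Ldha*) and TC (2.22) at 4 weeks lay above S-MT at 12 weeks (2.37). With all 5 housekeeping genes as reference TC and ED at 12 weeks were highest, above S-MT at 12 weeks, and S-AT at 12 weeks was lowest. Against the median Ct of 16 target genes ED and TC at 12 weeks were highest and S-MT at 4 weeks lowest, with S-AT at 12 weeks in between. The span without S-AT at 12 weeks was 1.86 cycles with *Ldha* alone and 2.12 cycles with *Rplp1* alone. With 1 value per group, no neighbours in the 4 orders could be set against a replicate spread.

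Differences between 2 receptors in the same sample need no reference gene, and because assays may amplify with different efficiency they were compared between samples only. In 4 of the 6 samples where both were detected, *Bmpr2* came up before *Bmpr1a*: *Bmpr1a* minus *Bmpr2* was 1.30 and 1.26 cycles in S-MT at 4 and 12 weeks, 1.77 cycles in S-AT at 4 weeks and 1.63 cycles in ED at 4 weeks. In the other 2 the order was turned, with -2.16 cycles in ED and -0.80 cycles in TC at 12 weeks. The whole range was 3.92 cycles, or 15.2-fold if both assays double in each cycle. The genomic DNA control well was at 29.2 in ED and 30.4 in TC at 12 weeks, the earliest of the 9 samples, and next came S-MT at 12 weeks (30.9), where the difference was 1.26 cycles. The part of this well in the turned order was not tested.

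The other type I receptors were set against *Bmpr2* in the same way. *Acvr1* minus *Bmpr2* was 1.59 and 2.15 cycles in S-MT at 4 and 12 weeks and 2.10 cycles in S-AT at 4 weeks, against -1.04 cycles in ED at 12 weeks, and in TC at 12 weeks, where *Acvr1* was over the cut-off, it was at least 0.65 cycles. *Bmpr1b* minus *Bmpr2* was 3.04 and 3.20 cycles in S-MT at 4 and 12 weeks and 2.47 cycles in S-AT at 4 weeks, against 0.32 cycles in ED and -0.15 cycles in TC at 12 weeks. Over the samples where both were detected, their ranges were 3.19 cycles (4 samples) and 3.35 cycles (5 samples).

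Pairs of type I receptors were compared over the samples where both were detected. *Acvr1* minus *Bmpr1a* lay between 0.29 and 1.12 cycles (4 samples), *Bmpr1b* minus *Bmpr1a* between 0.66 and 2.48 cycles (5 samples), and *Bmpr1b* minus *Acvr1* between 0.37 and 1.45 cycles (4 samples). In TC at 12 weeks, with *Acvr1* over the cut-off, *Acvr1* minus *Bmpr1a* was at least 1.45 cycles and *Bmpr1b* minus *Acvr1* at most -0.80 cycles, so that each bound lies outside the range of its pair and the second has the opposite sign. Counting wells over the cut-off too, the order from early to late was *Bmpr2*, *Bmpr1a*, *Acvr1* and *Bmpr1b* in both S-MT samples, both S-AT samples and ED at 4 weeks.

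**Figure D2:**
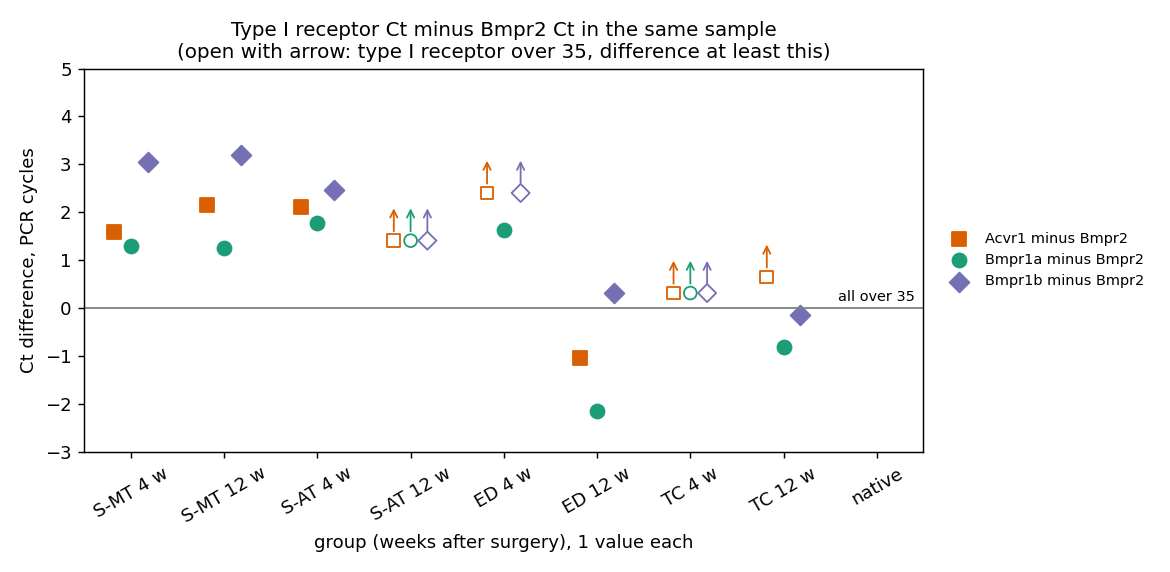
Ct of each type I receptor minus the Ct of Bmpr2 in the same sample (vertical axis, PCR cycles) by group (horizontal axis, 1 value each); open symbols with an arrow are lower bounds, the type I receptor being over 35, and points under the line at 0 came up before Bmpr2. Acvr1 and Bmpr1a in ED at 12 weeks and Bmpr1a and Bmpr1b in TC at 12 weeks lie under the line, and all other values and bounds lie above it.

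Folds were computed from delta Ct with wells over 35 set to 35, so that a fold is a bound where 1 group was over the cut-off, and a change of at least 2-fold (log2 of 1) was counted. The first question was whether the receptors differed between the scaffold with a mixed and that with an abrupt transition. At 4 weeks S-MT and S-AT were within 2-fold for *Acvr1* (log2 fold -0.01), *Bmpr1a* (-0.06) and *Bmpr2* (-0.52). *Bmpr1b* was 2.14-fold lower in S-MT (-1.10), its Ct being 34.9 for S-MT and 33.8 for S-AT, both near the cut-off. It did not pass 2-fold with all 5 housekeeping genes as reference (log2 -0.9997), and with a cut-off of 33 it had no fold. With *Ldha* and *Rplp1* it was 1 of 4 receptors past 2-fold, beside 5.26% of all 57 genes with a fold being at least 2-fold lower, and it held the second lowest place among 50 genes measured in both groups, whose median was -0.03. Counted from the lowest of these 50, *Bmpr2* held place 6, *Bmpr1a* 23 and *Acvr1* 26.

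At 12 weeks all 4 receptors were at least 2-fold higher in S-MT than in S-AT, beside 90.9% of all genes with a fold. *Bmpr2*, detected in both, was 15.3-fold higher (log2 3.93), which was place 19 of 44 genes measured in both groups (median 3.30). For the type I receptors, all over the cut-off in S-AT, the folds were lower bounds: at least 9.13-fold for *Acvr1*, 16.9-fold for *Bmpr1a* and 4.42-fold for *Bmpr1b*. The receptors thus stood with nearly all genes of the array.

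Over time the 2 scaffold groups went opposite ways. In S-MT *Bmpr1a* was 2.18-fold and *Bmpr2* 2.12-fold higher at 12 than at 4 weeks, and *Acvr1* (log2 0.52) and *Bmpr1b* (0.93) did not pass 2-fold. That made 2 of 4 receptors, beside 36.4% of all genes, and the median of the 51 genes measured at both times was 0.92. With 5 housekeeping genes as reference neither passed (log2 0.68 for *Bmpr1a* and 0.64 for *Bmpr2*). *Bmpr1a* minus *Bmpr2* differed by -0.04 cycles between the 2 times, so that the balance of this pair was nearly the same in both S-MT samples.

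In S-AT at 12 weeks, compared with 4 weeks, all 4 receptors were at least 2-fold lower, beside 75.4% of all genes. *Bmpr2* was 10.4-fold lower (log2 -3.37; median of 43 genes -2.23). *Acvr1*, *Bmpr1a* and *Bmpr1b*, over the cut-off at 12 weeks, were at least 6.41-fold, 8.08-fold and 4.96-fold lower. Some values of the S-AT plate at 12 weeks moved with these folds. Its positive PCR control wells had a mean Ct of 26.04, against 19.1 in ED at 12 weeks and 21.1 to 21.9 on the other plates. The Ct change from 4 to 12 weeks also differed along the plate, with a median of 2.52 cycles over the 8 genes of rows A and B, where the receptors lie, and of -0.64 cycles over the 19 genes of rows F and G (*Bmpr2* itself 2.21). Against the median Ct of 16 target genes in place of the reference genes, which removes by construction a shift that those genes share, *Bmpr2* had a log2 fold of 0.21 over time in S-AT and of 0.14 in S-MT over S-AT at 12 weeks, and 0 receptors passed 2-fold in either comparison. The part of the plate in the receptor folds was not tested.

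In ED the type I receptors and *Bmpr2* parted. *Bmpr1a* was 12.7-fold higher at 12 than at 4 weeks (log2 3.67), the highest place among 42 genes measured at both times (median 0.75). Genes over the cut-off at 4 weeks had no place in this order. Among them were *Dlx5*, *Nog* and *Bglap*, with lower bounds of log2 3.91, 3.84 and 3.82. With bounds counted, the median of 83 genes was 1.92. *Acvr1* was at least 10.04-fold and *Bmpr1b* at least 3.92-fold higher, while *Bmpr2* had a log2 fold of -0.11 (24th of 42). Thus 3 of 4 receptors passed 2-fold, beside 67.5% of all genes. With *Rplp1* alone as reference 4 receptors passed it, and with *Ldha* alone 2. The Ct difference of *Bmpr1a* and *Bmpr2* moved by -3.78 cycles, or 13.8-fold, with no reference gene in the calculation. The 2 reference genes disagreed here. *Ldha* came up at 27.4 in the 12-week sample and at 31.0 in the 4-week sample, but *Rplp1* at 25.1 in the 12-week and 25.3 in the 4-week sample, so that the log2 fold of *Bmpr2* was -1.83 with *Ldha* alone and 1.61 with *Rplp1* alone, and that of *Bmpr1a* 1.95 and 5.39. *Bmpr2* thus has no settled direction over time in ED, whereas *Bmpr1a* was more than 2-fold higher under each of the 5 references tried. The positive PCR control wells had a mean Ct of 19.1 on the ED plate at 12 weeks, the earliest of all plates, and of 21.1 at 4 weeks. The part of the plate in the ED folds was not tested.

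In TC *Bmpr1a* was at least 2.69-fold higher at 12 than at 4 weeks, 1 of 3 receptors with a fold, beside 23.1% of all genes. The bound for *Bmpr1b* was log2 0.77, *Bmpr2* had a log2 fold of 0.31, and *Acvr1* was over the cut-off at both times. With *Ldha* alone as reference 0 receptors passed 2-fold in TC, and with *Rplp1* alone 3 did.

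**Figure D3:**
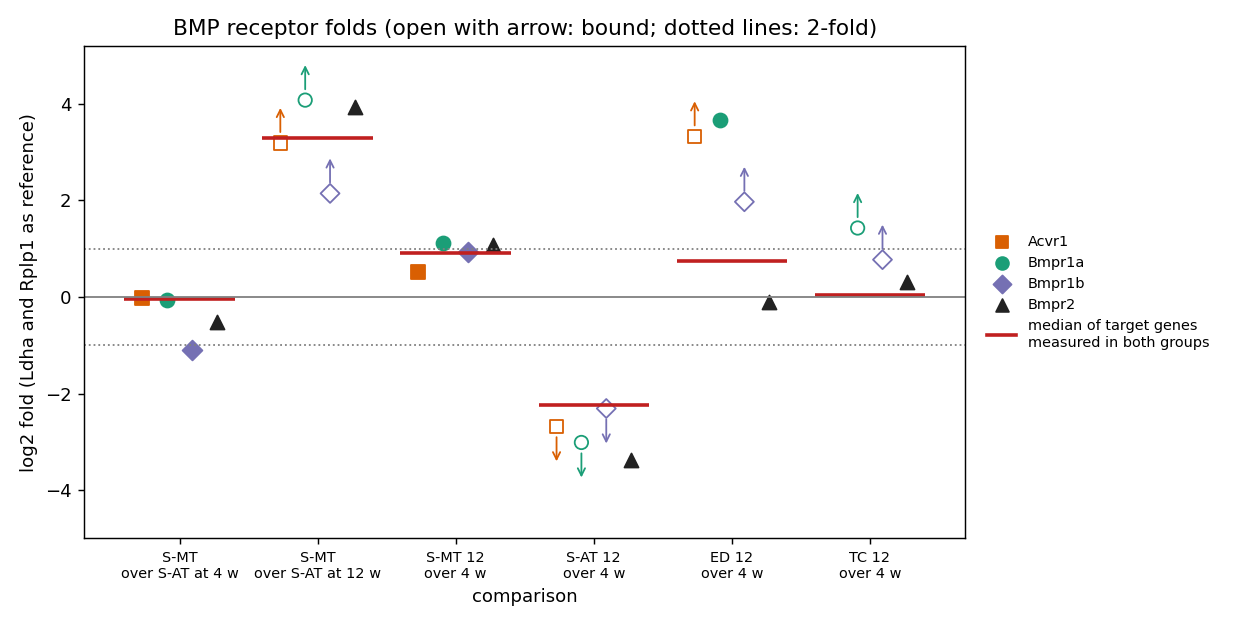
Log2 fold of each receptor (vertical axis, Ldha and Rplp1 as reference) for S-MT over S-AT at each time and for 12 over 4 weeks in each treatment (horizontal axis, 1 value per group); open symbols with an arrow are bounds, dotted lines mark 2-fold, and red bars are the median of all target genes measured in both groups. The receptors lie near the red bar in S-MT over time (0.92), and in ED Bmpr1a at 3.67 and Bmpr2 at -0.11 lie on either side of it (0.75).

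Type I receptors and *Bmpr2* also parted between treatments at 12 weeks, but the comparison with ED rests on the same ED sample as the change over time. In S-MT, compared with ED, *Bmpr1a* was 7.05-fold, *Acvr1* 6.00-fold and *Bmpr1b* 4.84-fold lower, all measured in both groups. *Bmpr2* was 1.52-fold higher, and this direction was turned with 5 housekeeping genes (log2 -1.10) or the target gene median (-0.66) as reference. This was 3 of 4 receptors, beside 59% of all genes being at least 2-fold lower, and the median of 66 genes was -0.97. Free of the reference genes, the differences of *Bmpr1a*, *Acvr1* and *Bmpr1b* from *Bmpr2* were larger in S-MT than in ED by 3.42, 3.19 and 2.88 cycles. In S-MT, compared with TC, *Bmpr1b* was 6.36-fold and *Bmpr1a* 2.63-fold lower and *Bmpr2* 1.60-fold higher (log2 0.68, but -1.47 with 5 housekeeping genes), so that 2 of 4 receptors passed 2-fold, beside 35.7% of all genes. ED and TC at 12 weeks were close for *Bmpr2* (log2 0.07) and *Bmpr1b* (-0.40), while *Bmpr1a* was 2.68-fold and *Acvr1* at least 3.39-fold higher in ED, 2 of 4 receptors beside 31.3% of all genes.

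S-AT at 12 weeks was lower than both groups without a scaffold. *Bmpr2* was 10.1-fold lower than in ED and 9.57-fold lower than in TC, but against the median of target genes neither passed 2-fold (log2 -0.80 and -0.67). All 4 receptors passed 2-fold against ED, beside 88% of all genes, and all 3 with a fold passed it against TC, beside 76.7% of all genes. These folds rest on the same S-AT plate.

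At 4 weeks, folds between S-MT or S-AT and ED or TC, and of ED over TC, were measured for *Bmpr2* and in part for *Bmpr1a*. *Bmpr2* ranged from a log2 fold of -0.59 (S-MT over ED) to 0.49 (ED over TC), and *Bmpr1a* was at -0.27 in S-MT and -0.21 in S-AT over ED. The reference genes disagreed for ED here too, and the directions over ED turned with them. In S-MT over ED the log2 fold with *Ldha* alone was -1.86 for *Bmpr2* and -1.54 for *Bmpr1a*, and with *Rplp1* alone 0.68 and 0.999. In S-AT over ED it was -1.37 and -1.51 with *Ldha* alone, and 1.23 and 1.09 with *Rplp1* alone.

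Against native tissue no receptor fold was measured on both sides. Of 32 folds, 9 could not be formed and 23 were lower bounds, of which 4 passed 2-fold: *Bmpr1a* and *Acvr1* in ED at 12 weeks (at least 6.08-fold and 2.80-fold, beside 41% of all genes), *Bmpr1a* in TC at 12 weeks (at least 2.26-fold, beside 29.4%) and *Bmpr2* in S-MT at 12 weeks (at least 2.07-fold, beside 30.3%). The bound of *Bmpr2* did not pass 2-fold with all 5 housekeeping genes (log2 0.39) or the median of target genes (-0.27) as reference, and with a cut-off of 33 none of the 4 passed. In the other 5 operated samples 0 receptors passed it, beside 29.4% of all genes in S-MT at 4 weeks, 25% and 4.44% in S-AT at 4 and 12 weeks, 33.3% in ED at 4 weeks and 22.2% in TC at 4 weeks. For 12 of the 23 the bound was under 1-fold, which leaves the direction unknown.

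The rest of the pathway on the array was counted in the same comparisons. For ED at 12 over 4 weeks, where 67.5% of all genes were at least 2-fold higher, 6 of 7 BMP-family ligands passed 2-fold. *Bmp5* was 6.08-fold higher and *Bmp6* had a bound of log2 0.02. Both secreted antagonists passed it, *Chrd* (chordin) at least 7.68-fold and *Nog* (noggin) at least 14.3-fold. The BMP-branch mediators *Smad1* (at least 2.79-fold) and *Smad5* (2.26-fold) passed it too, and the common mediator *Smad4* did not (1.78-fold). The receptors of the related TGF-beta branch, *Tgfbr1*, *Tgfbr2* and *Tgfbr3*, were 2.95-fold, 3.37-fold and 5.03-fold higher, and 5 of 5 osteoblast genes passed 2-fold, among them the transcription factor *Dlx5* (a bound of log2 3.91). Of the 4 BMP receptors, *Bmpr2* did not pass 2-fold beside them with *Ldha* and *Rplp1* as reference, though it did with other references.

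For S-AT at 12 over 4 weeks 0 of 3 TGF-beta receptors were at least 2-fold lower (log2 -0.52, 0.37 and -0.40 for *Tgfbr1*, *Tgfbr2* and *Tgfbr3*), against 4 of 4 BMP receptors and 75.4% of all genes. *Smad5* was at log2 -0.98, and *Smad2*, *Smad3* and *Smad4* were 2-fold or more lower (-2.14, -1.33 and -1.12). The TGF-beta receptors lie in row G of the plate, and the BMP receptors in rows A and B. In S-MT, compared with S-AT at 12 weeks, 2 of 3 TGF-beta receptors and 1 of 1 BMP-branch mediator with a fold (*Smad5*, 3.37-fold) were at least 2-fold higher, beside 90.9% of all genes. In S-MT, compared with ED at 12 weeks, 7 of 7 ligands and both antagonists were at least 2-fold lower, beside 59% of all genes. Of the TGF-beta receptors *Tgfbr1* was 5.71-fold higher, *Tgfbr3* 6.01-fold lower and *Tgfbr2* at log2 0.85.

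Receptor tyrosine kinases served as a further set. For ED at 12 over 4 weeks 3 of 4 were at least 2-fold higher, beside 67.5% of all genes. For S-AT 3 of 3 with a fold were at least 2-fold lower, beside 75.4% of all genes. For S-MT *Fgfr1* (2.09-fold) and *Igf1r* (2.15-fold) were higher together with *Bmpr1a* and *Bmpr2*, beside 36.4% of all genes. In S-MT 0 genes of the other pathway lists passed 2-fold.

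For each receptor the target genes whose Ct ran most in parallel with it were sought by the smallest SD of the Ct difference over samples with both detected, at least 6. Over 6 samples and 33 genes *Bmpr1a* ran closest to *Igf1r*, the receptor of insulin-like growth factor 1 (SD 0.299 cycles), followed by *Pdgfa*, a growth factor chain (0.398), and *Twist1*, a transcription factor (0.538), with a median SD of 1.902 over all 33 genes. The 6 samples leave out S-AT at 12 weeks, where *Bmpr1a* was over the cut-off (35.9) but *Twist1* (31.5) and *Pdgfa* (34.0) were detected. There both came further ahead of *Bmpr1a* than in any of the 6, where the lowest differences were -1.27 and -0.59 cycles. *Bmpr2* was in place 13 of that list (1.60). Over 40 genes *Bmpr2* ran closest to *Col14a1*, a collagen associated with fibrils (0.352, 6 samples; over the cut-off in S-AT and TC at 12 weeks, where it was at least 1.41 and 0.65 cycles after *Bmpr2*, later than in any of the 6), *Col5a1*, a fibril collagen (0.661, 8 samples), and *Cdh11*, a cadherin of mesenchymal cells (0.739, 6 samples), with a median of 1.25, and *Bmpr1a* was in place 32. *Acvr1* and *Bmpr1b* shared 6 samples with no gene. The points share plates and RNA amounts.

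**Figure D4:**
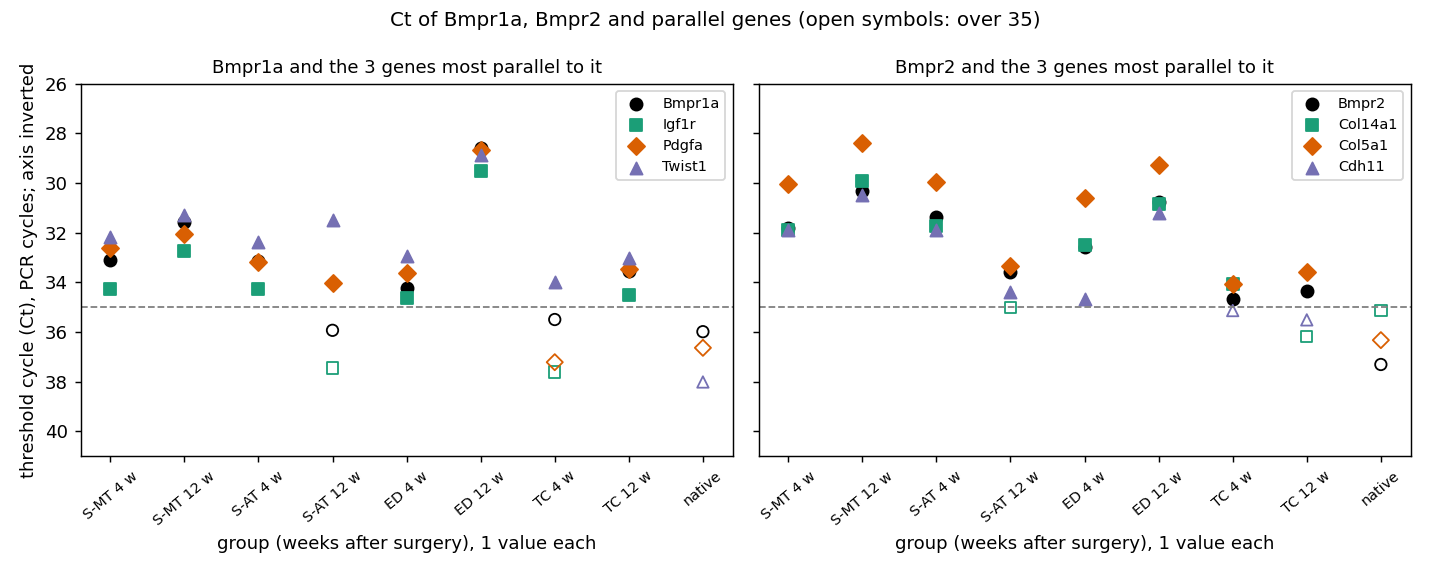
Ct (inverted vertical axis, PCR cycles) of Bmpr1a with Igf1r, Pdgfa and Twist1 (left) and of Bmpr2 with Col14a1, Col5a1 and Cdh11 (right) by group (horizontal axis, 1 value each); open symbols are over the cut-off of 35, drawn as a dashed line. Igf1r, at an SD of 0.299 cycles, and Col14a1, at 0.352 cycles, had the smallest SD of the distance from their receptors over the 6 samples where both were detected. Col14a1 was over 35 in S-AT and TC at 12 weeks. In S-AT at 12 weeks Twist1 and Pdgfa were detected while Bmpr1a was over 35.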

How the data were processed

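The deposited data were a table of Ct values per well, a table of normalized expression and a table of fold changes over native tissue. According to the methods, the authors extracted total RNA, ran an RT2 Profiler array for rat osteogenesis by SYBR Green PCR and normalized each Ct to the mean of *Ldha* and *Rplp1*, with a cut-off of 35. Of the other deposited values, Ct is in cycles and normalized expression is 2 to the power of the negative delta Ct. The fold table holds the authors' own comparisons and was not used.

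Wells over 35 or undetermined were set to 35, each Ct was taken relative to the mean of *Ldha* and *Rplp1*, and folds were 2 to the power of the negative difference, for 24 comparisons, in pandas 2.3.3 and numpy 2.4.6 under Python 3.11.15 (figures in matplotlib 3.10.9). Genes over 35 in both groups had no fold. Percentages of all genes are over the target genes with a fold or bound in that comparison. All 27 receptor values of the normalized table that could be recomputed lay within 5% of it, as did 495 of 505 values overall. The calculation was checked on simulated data. With 1 value per group no test was run, and precision is limited by the number of samples. Control wells were named after the array maker's usual layout. All 4 symbols and accessions matched RefSeq, and start-site sequences were at hand for *Bmpr1a* and *Bmpr2*.

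The genes named were the 4 receptors, genes of the pathway lists and, for each receptor, the 3 most parallel genes. The members, lists and comparisons were chosen with earlier results of these data known. The alternatives were *Ldha* alone, *Rplp1* alone, 5 housekeeping genes, the median of those 16 target genes that every sample detected, a cut-off of 33, no cut-off, folds measured in both groups only, an amplification of 1.9 and the authors' normalized values. A further alternative, added after seeing the data, kept only receptor values at least 1 cycle ahead of the genomic DNA control well or over the cut-off.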

Additional observations from a re-analysis of the deposited data

Results flagged for a closer look

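For each receptor the change from 4 to 12 weeks passed 2-fold in opposite directions in S-AT and in at least 1 other treatment, with *Ldha* and *Rplp1* as reference. The values are differences between log2 changes, and where a change is a bound the difference is at least as large. They were not tested, since each change rests on 1 value per group and time, and all of them share the 2 S-AT samples. For *Acvr1* the log2 change was 3.33 in ED and -2.68 in S-AT, a difference of 6.01. For *Bmpr1a* it was 3.67 in ED, 1.13 in S-MT and 1.43 in TC against -3.01 in S-AT, with differences of 6.69, 4.14 and 4.44. For *Bmpr1b* it was 1.97 in ED and -2.31 in S-AT, a difference of 4.28. *Bmpr2* changed by 1.09 in S-MT, against -3.37 in S-AT, a difference of 4.46, while in ED it was at -0.11. Against the median of target genes the log2 change of *Bmpr2* in S-AT was 0.21.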

How the results depend on the processing

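Of the single folds and Ct differences under the alternatives, 581 stayed close, 61 moved and 11 called folds changed sign. Of the counts of receptors past 2-fold and the Ct difference of *Bmpr1a* and *Bmpr2* in ED at 12 weeks, 77 values under an alternative stayed within 1.5 times the count or 1 cycle of the difference reported, and the following 46 did not. With *Ldha* alone 0 receptors, with *Rplp1* alone 3, passed 2-fold in TC over time (1 reported). With all 5 housekeeping genes the counts were 0 for S-MT over time (2 reported) and for S-MT below S-AT at 4 weeks (1), 3 for TC over time, 1 for ED above TC (2) and 7 over native tissue (4). With the median of target genes they were 0 for S-MT above S-AT at 12 weeks and for S-AT over time (4 each) and 2 for TC over time. Under this reference the log2 folds of S-AT over time were 0.21 for *Bmpr2* and upper bounds of 0.90, 0.56 and 1.27 for *Acvr1*, *Bmpr1a* and *Bmpr1b*, and lower bounds were -0.60 for *Acvr1* and -1.65 for *Bmpr1b* in S-MT over S-AT at 12 weeks and -0.27 for *Bmpr2* in S-MT at 12 weeks over native tissue. A cut-off of 33 gave 1 for S-AT over time and 0 for S-MT below S-AT at 4 weeks, TC over time, S-MT below TC (2), ED above TC, S-AT below TC (3) and native tissue, with lower bounds of -0.95 for *Bmpr2* in S-MT and -0.52 for *Acvr1* in ED at 12 weeks over native tissue, -0.028 for *Bmpr1b* in ED over time and -0.24 for *Acvr1* in ED over TC. A bound that changes sign leaves the direction unknown. No cut-off gave 2 for TC over time and 15 over native tissue. Folds measured in both groups gave 1 for S-MT above S-AT at 12 weeks, S-AT over time, ED over time (3), ED above TC, S-AT below ED (4) and S-AT below TC, and 0 for TC over time and native tissue, since they leave out bounds; the authors' normalized values gave the same 1 and 0 except over native tissue, which stayed at 4. The restriction to receptor values at least 1 cycle ahead of the genomic DNA control well or over the cut-off was chosen after seeing the data. It gave 1 (*Bmpr2*) for S-AT over time and 0 in all 11 other counts. Except where a setting leaves values out, the cause was not tested. Leaving out each replicate was not run, since each group has 1 value. No paired analysis was possible because each group has 1 value. Late Ct values limit the receptors, 13 of whose 36 values were over the cut-off.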
